A study of Mus musculus with 32 samples.

Results

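The genes described here are the 3 forkhead box O transcription factors Foxo1, Foxo3 and Foxo4 and 6 genes that FOXO factors are known to switch on when PI3K-AKT signalling is low, Klf2, Klf6, Irs2, Pik3ip1, Txnip and Sesn3. They were taken as a list of names and found by their GENCODE M21 symbol among the deposited counts, where they are 9 of 56246 gene rows. The study sequenced RNA from bone marrow LSK cells (lineage-negative, Sca-1+, Kit+ stem and multipotent progenitor cells) and from granulocyte-macrophage progenitors (GMP), sorted by flow cytometry from C57BL/6 mice that carry a FLT3-ITD transgene. Within each cell type the mice had received AC220 (quizartinib, an inhibitor of the FLT3 kinase), the combination of AC220 and Lys05, Lys05 alone (a chloroquine-derived inhibitor of lysosomal degradation, used to block autophagy), or vehicle, with 4 biological replicates in each of the 8 groups and 32 libraries in all. Every mouse, vehicle-treated ones included, carried FLT3-ITD, so that no group shows the level of these genes without the receptor mutation. The labels give no dose, length of treatment, age or promoter of the transgene. Each library held 35.7 to 55.9 M gene counts.

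On GRCm38, by the GENCODE M21 annotation, the factors lie apart: Foxo1 (ENSMUSG00000044167) at chr3:52268336-52353221 on the plus strand, Foxo3 (ENSMUSG00000048756) at chr10:42181841-42276755 on the minus strand and Foxo4 (ENSMUSG00000042903) at chrX:101254528-101260873 on the plus strand. Of the targets, Irs2 (ENSMUSG00000038894) lies at chr8:10984681-11008458 on the minus strand, and Klf2 (ENSMUSG00000055148) on the same chromosome at chr8:72319033-72321656 on the plus strand. Txnip (ENSMUSG00000038393) is at chr3:96557957-96561883, Pik3ip1 (ENSMUSG00000034614) at chr11:3330401-3342971, Sesn3 (ENSMUSG00000032009) at chr9:14275067-14333101 and Klf6 (ENSMUSG00000000078) at chr13:5861482-5870394, all on the plus strand.

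FOXO proteins are the transcriptional end of the PI3K-AKT pathway. Signalling from FLT3 and other receptors activates AKT, which phosphorylates FOXO proteins and holds them in the cytoplasm, bound to 14-3-3 proteins. When the signal falls, FOXO proteins enter the nucleus and switch on genes that slow the cell cycle, raise resistance to oxidative stress and feed back on insulin and PI3K signalling. In blood-forming stem cells FOXO proteins are known for preserving quiescence. The switch is largely post-translational, so that the level of a FOXO mRNA does not report the activity of its protein.

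The promoters of Txnip and Irs2 are shown because these 2 genes hold a FOXO-type motif near their RefSeq start and both had higher counts in LSK cells under AC220. The motifs searched were GTAAACA, the core of the forkhead recognition element, and CAAAACA, the insulin response element, each on both strands and in the 250 bases before the RefSeq start site. Capitals mark the match, and both sequences are from RefSeq on GRCm38.p6, written along the gene's own strand. The Txnip bases are chr3:96557707-96557956, plus strand, with GTAAACA on the gene's strand and its first base 121 before the start. The Irs2 bases are chr8:11008930-11009179, minus strand, where CAAAACA lies on the opposite strand and reads TGTTTTG along the gene, 37 bases before the RefSeq start. This window lies wholly upstream of the GENCODE start of Irs2 at chr8:11008458, so the motif is further from that start.
Txnip: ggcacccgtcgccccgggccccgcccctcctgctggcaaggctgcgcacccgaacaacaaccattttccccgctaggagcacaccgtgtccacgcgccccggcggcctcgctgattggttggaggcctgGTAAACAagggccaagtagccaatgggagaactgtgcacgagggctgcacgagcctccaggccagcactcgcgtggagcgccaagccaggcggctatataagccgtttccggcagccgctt
Irs2: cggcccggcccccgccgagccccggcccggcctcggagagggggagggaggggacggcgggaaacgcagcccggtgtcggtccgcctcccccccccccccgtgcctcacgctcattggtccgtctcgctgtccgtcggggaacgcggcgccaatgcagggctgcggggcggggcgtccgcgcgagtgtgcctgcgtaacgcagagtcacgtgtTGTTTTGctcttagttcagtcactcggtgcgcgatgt
Of the 9 genes, 8 had an entry in the promoter table, and Foxo1, Foxo3, Klf2, Klf6, Pik3ip1 and Sesn3 held neither motif in this window. The windows of Pik3ip1 (chr11:3330481-3330730) and Sesn3 (chr9:14276051-14276300) lie inside their GENCODE genes, so the bases before their GENCODE starts were not searched. Over all 32851 promoters in the table, GTAAACA was found in 3.17%, CAAAACA in 5.56% and either motif in 8.51%. A match describes the letters of this window and does not show that a FOXO protein binds there.

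The sorted fractions differed in the summed level of their defining markers, which does not measure purity. The summed level of 8 stem and progenitor markers (Ly6a, Kit, Hlf, Mecom, Procr, Meis1, Cd34 and Mllt3) was 484 to 508 CPM (counts scaled to the library's total and its TMM factor, which sets most genes level between libraries) in vehicle-treated LSK libraries, against 84.6 to 163 CPM in vehicle-treated GMP libraries. The 8 granulocyte-macrophage markers (Mpo, Elane, Prtn3, Ctsg, Ms4a3, Csf1r, Fcgr3 and Ly6c2) summed to 3649 to 6556 CPM in vehicle LSK libraries and to 36980 to 53520 CPM in vehicle GMP libraries. Markers listed for other cells were counted too. The 10 dendritic cell and MHC class II genes summed to 19810 to 70780 CPM in vehicle LSK libraries. Their sum in vehicle GMP libraries was 3158 to 12040 CPM. T and NK cell markers summed to 1641 to 2456 CPM in vehicle LSK libraries and to 1835 to 3429 CPM in vehicle GMP libraries. In bulk RNA of this kind, fewer cells of a type and less RNA per cell cannot be told apart.

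All 9 genes passed the filter on low counts in each fit. Levels can be compared between genes once scaled by the longest transcript (CPM per kb, from 1 scaling of all 32 libraries). Under AC220 the highest LSK means were those of Txnip, 33.4 ± 5.18 CPM per kb (SD, n = 4), Pik3ip1, 19.4 ± 4.21, Klf6, 14.7 ± 6.66, and Klf2, 14.6 ± 11.1 CPM per kb. Irs2 averaged 3.95 ± 1.80 and Foxo3 1.63 ± 0.195 CPM per kb, and Foxo4 stood last at 0.117 ± 0.0206 CPM per kb. In the vehicle-treated LSK libraries Txnip again came first with 18.8 ± 2.96, then Klf6 with 16.3 ± 3.38, Pik3ip1 with 11.3 ± 1.76 and Klf2 with 8.54 ± 3.54 CPM per kb. Below them Foxo3 averaged 3.98 ± 0.472, Sesn3 1.35 ± 0.832, Irs2 0.947 ± 0.420, Foxo4 0.577 ± 0.144 and Foxo1 0.565 ± 0.318 CPM per kb. In that vehicle order, Txnip and Klf6, Pik3ip1 and Klf2, Sesn3 and Irs2, and Irs2, Foxo4 and Foxo1 were neighbours whose means differed by less than the larger SD. In vehicle GMP libraries Klf2 came first with 20.4 ± 10.8, Pik3ip1 second with 19.0 ± 12.6 and then Klf6 with 16.4 ± 9.27 CPM per kb, which differed by less than the larger SD, and Foxo1 came last with 0.399 ± 0.284 CPM per kb.

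The first comparison asks how these genes differed between AC220 and vehicle in LSK cells. Foxo3, Foxo4 and Sesn3 fell under AC220, whereas Irs2, Pik3ip1 and Txnip rose, and Foxo1, Klf2 and Klf6 did not pass the test (edgeR's quasi-likelihood test, Benjamini-Hochberg adjusted p under 0.05 over all 15730 genes tested). The 6 genes called out of 9 stand beside 54.9% of all tested genes (29.4% higher and 25.5% lower), which is a share near the background. The median log2 fold change of the 9 genes was 0.59, against 0.09 over all genes tested. By longest transcript, genes of 2000 to 4000 bp had a median of 0.54 and genes of 4000 bp and over 0.53. Only Klf2, at 1847 bp, is shorter than 2000 bp among the 9 genes. The median over all genes is thus not matched to their length. With the combination, Foxo3, Foxo4, Klf6 and Sesn3 fell and Irs2 and Pik3ip1 rose, again 6 of 9, beside 51.8% of all genes (28.3% higher and 23.6% lower). There the median of the 9 genes was -0.43 and that of all genes 0.06. It was 0.48 over genes of 2000 to 4000 bp and 0.35 over genes of 4000 bp and over.

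These changes are relative to the bulk of genes, and the scaling bears on them. The TMM factors were 1.27 to 1.31 in the AC220 libraries, 1.18 to 1.29 with the combination, 0.732 to 0.854 with Lys05 and 0.731 to 0.875 with vehicle. On library totals alone, without these factors, the median of all genes was 0.78 for AC220 and 0.67 for the combination against vehicle, and 6898 of 9353 calls for AC220 were higher, against 4626 of 8632 with TMM. For the combination 6520 of 8755 were higher on totals, against 4448 of 8153 with TMM. Every called member kept its direction on totals, and the falls were smaller and the rises larger. Under AC220, Foxo4 at -1.67 kept its call (adjusted p = 0.0128, edgeR), while Foxo3 at -0.62 and Sesn3 at -1.01 lost theirs (adjusted p = 0.0633 and 0.06739, edgeR). Under the combination Sesn3 at -1.20 kept its call (adjusted p = 0.03579, edgeR), and Foxo3 at -0.26, Foxo4 at -0.80 and Klf6 at -0.29 lost theirs (adjusted p = 0.4461, 0.211 and 0.3411, edgeR). Klf2 under AC220 (1.43, adjusted p = 0.008894, edgeR) and Txnip under the combination (0.91, adjusted p = 0.002998, edgeR) were called higher on totals. The levels below are TMM-scaled, and it is said where the groups separate otherwise on totals.

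Of the factors, Foxo3 is the family member most tied to stem cell maintenance. It stood at 14.99, 12.46, 11.27 and 13.69 CPM in the AC220 libraries of LSK cells, at 31.61, 13.27, 13.36 and 12.0 CPM in the combination libraries, at 33.55, 31.11, 33.32 and 39.73 CPM with Lys05 and at 28.27, 35.18, 36.69 and 31.2 CPM with vehicle. All AC220 libraries lay below all vehicle libraries, while combination library 1 lay among the vehicle values and the other 3 did not. On the log2 scale the change was -1.33 ± 0.26 (SE) for AC220 against vehicle (adjusted p = 0.0003792, edgeR) and -0.90 ± 0.26 for the combination against vehicle (adjusted p = 0.00739, edgeR). Without combination library 1 the value for the combination was -1.34 (adjusted p = 6.783e-06, edgeR).

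Foxo4, an X-linked member of the family, was sparse, at 20 to 35 counts a library with AC220 and 44 to 102 counts with vehicle. Its LSK levels were 0.3227, 0.4443, 0.4712 and 0.4851 CPM under AC220, 1.297, 0.8612, 0.5911 and 0.5643 CPM under the combination, 1.008, 0.6027, 0.9698 and 1.97 CPM under Lys05 and 2.818, 2.254, 1.469 and 2.245 CPM under vehicle. Neither the AC220 nor the combination libraries overlapped the vehicle libraries, and the combination libraries all lay above the AC220 libraries. On library totals alone the combination libraries overlapped vehicle. Against vehicle the log2 fold change was -2.34 ± 0.52 with AC220 (adjusted p = 0.001023, edgeR) and -1.41 ± 0.50 with the combination (adjusted p = 0.02658, edgeR). The call for the combination was lost without a filter on low counts (adjusted p = 0.1163) and without combination library 2, 3 or 4 (adjusted p = 0.05982, 0.08135 and 0.08252).

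Foxo1, the member best known for insulin-responsive genes, had 8.358, 9.845, 7.206 and 10.03 CPM in the AC220 libraries, 9.183, 6.397, 8.207 and 7.182 CPM in the combination libraries, 1.182, 3.272, 4.283 and 6.134 CPM in the Lys05 libraries and 5.83, 10.58, 3.205 and 3.941 CPM in the vehicle libraries. Vehicle library 2 was the highest of all 16, so that the groups overlapped, whereas on library totals alone all AC220 libraries lay above vehicle. The log2 fold change against vehicle was 0.59 ± 0.42 with AC220 (adjusted p = 0.2488, edgeR) and 0.39 ± 0.42 with the combination (adjusted p = 0.4602, edgeR). For AC220 it passed without vehicle library 2 (1.04, adjusted p = 0.0443, edgeR), with voom (0.89, adjusted p = 0.0406, limma) and on library totals alone (1.27, adjusted p = 0.02265, edgeR).

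Among the targets, Irs2, which encodes an adaptor that couples insulin and cytokine receptors to PI3K, had the largest rise. LSK libraries held 49.45, 22.98, 20.38 and 24.32 CPM with AC220, 21.22, 13.69, 18.49 and 16.38 CPM with the combination, 5.006, 4.305, 7.813 and 10.41 CPM with Lys05 and 7.239, 7.931, 10.68 and 2.968 CPM with vehicle. Every AC220 and combination library lay above every Lys05 and vehicle library. Relative to vehicle the log2 change was 2.03 ± 0.39 with AC220 (adjusted p = 0.0003082, edgeR) and 1.28 ± 0.38 with the combination (adjusted p = 0.009831, edgeR), and AC220 library 1 alone stood well above the rest of its group. Without that library the value for AC220 was 1.66 (adjusted p = 0.001324, edgeR).

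Pik3ip1, a membrane protein that binds and restrains PI3K, had 43.23, 72.78, 62.75 and 54.71 CPM with AC220, 43.64, 71.05, 54.9 and 63.24 CPM with the combination, 34.83, 41.5, 55.25 and 48.37 CPM with Lys05 and 27.44, 36.32, 39.96 and 36.69 CPM with vehicle. Both AC220-containing groups lay wholly above vehicle, and the Lys05 libraries overlapped all 3 other groups, though on library totals alone vehicle only. Both log2 changes against vehicle were alike, 0.73 ± 0.20 with AC220 (adjusted p = 0.004798, edgeR) and 0.73 ± 0.20 with the combination (adjusted p = 0.005402, edgeR).

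Txnip encodes thioredoxin-interacting protein, which binds thioredoxin and limits glucose uptake. It reached 119.1, 130.2, 92.34 and 100.3 CPM with AC220, 91.88, 67.49, 68.07 and 89.04 CPM with the combination, 41.02, 41.36, 47.06 and 72.2 CPM with Lys05 and 77.78, 65.79, 54.08 and 58.97 CPM with vehicle. The AC220 libraries lay above all others in LSK cells, and the combination overlapped vehicle, while on library totals alone it lay above vehicle and overlapped AC220. Against vehicle the log2 change was 0.78 ± 0.19 with AC220 (adjusted p = 0.002466, edgeR) and 0.30 for the combination (adjusted p = 0.2043, edgeR).

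Sesn3 encodes a sestrin, a stress-induced protein that restrains mTORC1. Unlike the 3 genes above, it was lower with the inhibitor. Its levels were 7.132, 2.93, 3.946 and 4.782 CPM with AC220, 6.526, 4.121, 2.803 and 3.847 CPM with the combination, 8.517, 6.4, 11.29 and 15.76 CPM with Lys05 and 28.07, 14.12, 9.413 and 7.832 CPM with vehicle. The AC220 and combination libraries all lay below the vehicle libraries, in which library 1 was the highest, but on library totals alone both groups overlapped vehicle. The log2 fold change was -1.66 ± 0.42 with AC220 (adjusted p = 0.003275, edgeR) and -1.78 ± 0.43 with the combination (adjusted p = 0.002221, edgeR).

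The Krüppel-like factors Klf2 and Klf6 regulate quiescence, migration and myeloid differentiation. Klf6 had 121.4, 54.36, 47.65 and 68.36 CPM with AC220, 44.83, 34.51, 41.05 and 54.58 CPM with the combination, 90.59, 63.11, 55.77 and 52.93 CPM with Lys05 and 74.66, 84.56, 105.7 and 66.08 CPM with vehicle. The combination libraries all lay below vehicle, but overlapped it on library totals alone, and AC220 library 1 lay above it. Klf6 differed from vehicle by a log2 change of -0.92 ± 0.27 with the combination (adjusted p = 0.008563, edgeR) and -0.18 ± 0.27 with AC220 (adjusted p = 0.5875, edgeR).

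Markers of dendritic cells and MHC class II genes moved in the same libraries as Klf6. The 10 listed genes summed to 847.2 to 6383 CPM in the combination libraries and 19810 to 70780 CPM in the vehicle libraries of LSK cells (exact two-sided permutation test, p = 0.0286, the smallest that 4 libraries against 4 can give). The sum was 5164 to 21870 CPM with AC220 (exact p = 0.0571). Of the dendritic markers, Cd209a had a median of 4.009 CPM with the combination and 96.92 CPM with vehicle, and Batf3 a median of 5.439 and 119.3 CPM. Not all of the 10 moved alike. With the offset for transcript length and GC content described below, 7 were called lower and 1 higher for the combination. For AC220, 3 were called lower and 2 higher. The 10 include Flt3, the gene of the kinase that AC220 inhibits. None of the 10 was at 0 in an LSK library of these groups. The part of these cells in the level of Klf6 was not tested.

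Of the 9 genes, Klf2 varied most within the AC220 group of LSK cells, with 67.23, 17.51, 14.61 and 26.82 CPM under AC220, 17.6, 11.16, 10.69 and 17.01 CPM under the combination, 13.87, 12.63, 7.813 and 7.738 CPM under Lys05 and 17.08, 29.67, 18.46 and 10.73 CPM under vehicle. AC220 library 1 was far above the other 15. The log2 fold change was 0.73 ± 0.43 with AC220 (adjusted p = 0.1567, edgeR) and 0.06 without that library (adjusted p = 0.8902, edgeR). The same library had the highest summed level of 15 immediate early genes, 1289 CPM, against 500.6 to 617.4 CPM in the other AC220 libraries and 484.1 to 808.1 CPM with vehicle. It was also the highest AC220 library for Klf6 and Irs2. Whether the immediate early genes have a part in these levels was not tested.

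**Figure D1:**
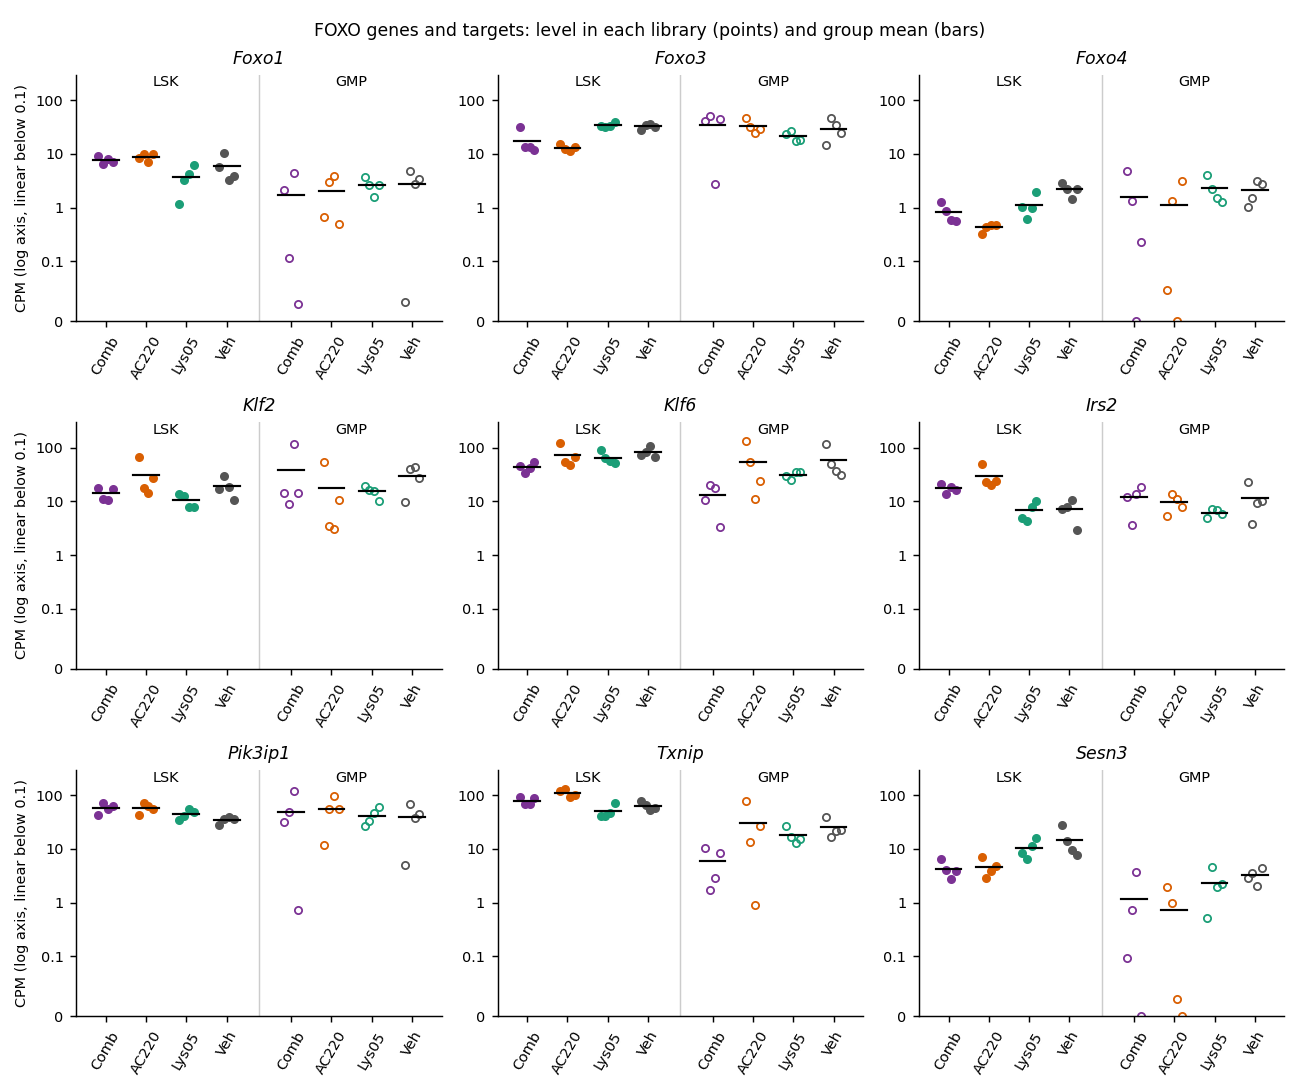
Level of each of the 9 genes in every library, in CPM on a log axis that is linear below 0.1 (points, 4 per group; filled for LSK, open for GMP), with the group mean as a bar; Comb stands for the combination and Veh for vehicle. In LSK cells Foxo3, Foxo4 and Sesn3 sit lower and Irs2 higher in the AC220 group than in the vehicle group at this TMM scaling, while GMP libraries of 1 group range from 0 or near 0 to several CPM for Foxo1, Foxo4 and Sesn3.

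The LSK libraries of AC220 and of the combination also differed from vehicle in which transcripts held their counts. Genes whose longest transcript is under 1000 bp held 7.43% to 8.37% of gene counts with AC220, 7.89% to 10.6% with the combination, 17.3% to 20.2% with Lys05 and 19% to 20.7% with vehicle (exact two-sided permutation test against vehicle, p = 0.0286 for AC220 and for the combination, p = 0.2 for Lys05). For AC220 against vehicle the median log2 fold change was -1.67 over genes under 1000 bp and 0.53 over genes of 4000 bp and above. Since the longest transcripts of the 9 genes run from 1847 bp for Klf2 to 9125 bp for Sesn3, every value was fitted again with an offset per library for transcript length and GC content, which brought these medians to -0.25 and 0.16. The cause of the length difference was not tested.

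With that offset the falls became larger and the rises smaller. Under AC220, Foxo3 stood at -2.43 (adjusted p = 4.163e-07, edgeR), Foxo4 at -3.42 (adjusted p = 0.0001018, edgeR) and Sesn3 at -1.99 (adjusted p = 0.0001941, edgeR) on the log2 scale. Irs2 kept its call at 1.03 (adjusted p = 0.0264, edgeR), Txnip lost it at 0.38 (adjusted p = 0.1471, edgeR) and Pik3ip1 went to -0.004 (adjusted p = 0.9862, edgeR). For the combination, Foxo3 at -1.75, Foxo4 at -2.29, Klf6 at -1.31 and Sesn3 at -1.95 kept their calls (adjusted p = 1.431e-05, 0.002361, 0.001059 and 0.0002452, edgeR). Irs2 at 0.55 and Pik3ip1 at 0.07 lost theirs (adjusted p = 0.2301 and 0.7663, edgeR). The rise of Pik3ip1 in both comparisons, that of Txnip under AC220 and that of Irs2 under the combination therefore depended on leaving transcript length and GC content out of the fit.

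**Figure D2:**
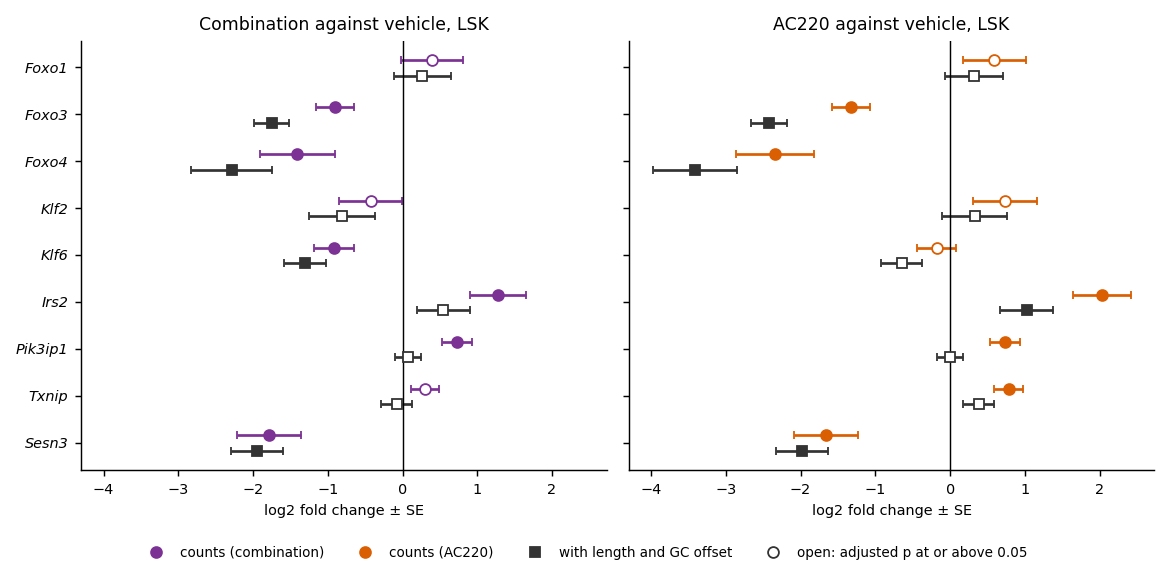
Log2 fold change with its standard error for the 9 genes in LSK cells, the combination against vehicle (left) and AC220 against vehicle (right), from the counts (circles) and with the offset for transcript length and GC content (squares); filled symbols have an adjusted p under 0.05. Foxo3, Foxo4 and Sesn3 lie below 0 in both comparisons with either fit, and Pik3ip1 moves from 0.73 to about 0 with the offset.

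The second question was whether Lys05 changed these genes, alone or on top of AC220. Lys05 alone gave no call among the 9 genes, in a comparison where 0% of all genes were called by edgeR (2718 genes at an unadjusted p under 0.05, and 607 called by DESeq2). The values nearest to a call were Klf2 at -0.85 ± 0.43 (adjusted p = 0.321, edgeR) and Foxo4 at -0.95 ± 0.50 (adjusted p = 0.341, edgeR).

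Set against AC220 alone, the combination again gave no call among the 9 genes, beside 0.356% of all genes called (1456 genes at an unadjusted p under 0.05, and 349 called by DESeq2). Klf2 differed by -1.16 ± 0.43 (adjusted p = 0.3217, edgeR), Klf6 by -0.74 ± 0.27 (adjusted p = 0.3037, edgeR), Irs2 by -0.75 ± 0.37 (adjusted p = 0.5905, edgeR) and Txnip by -0.48 ± 0.19 (adjusted p = 0.376, edgeR), so that these 4 estimates were lower with the combination. Those of Foxo4, 0.937 ± 0.498 (adjusted p = 0.6502, edgeR), and Foxo3, 0.421 ± 0.255 (adjusted p = 0.7559, edgeR), were higher. Foxo1, Sesn3 and Pik3ip1 stood at -0.195, -0.12 and -0.004. Without AC220 library 1, Klf2 stood at -0.48, Klf6 at -0.379 and Irs2 at -0.374. Klf6, Irs2 and Txnip were called lower by limma's voom with quality weights, which called 2113 genes in all. The interaction of Lys05 and AC220 was called for 0 of the 9 genes and for 0% of all genes by edgeR (1645 at an unadjusted p under 0.05, and 118 by DESeq2). Its largest value was that of Foxo4, 1.89 ± 0.70 (adjusted p = 0.3489, edgeR), which had fallen less with the combination than with AC220.

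Set against Lys05 alone, the combination gave 5 calls among the 9 genes, beside 49.5% of all genes (27.2% higher and 22.3% lower). Irs2 rose by 1.34 (adjusted p = 0.007446, edgeR), Txnip by 0.65 (adjusted p = 0.009824, edgeR) and Foxo1 by 1.06 ± 0.42 (adjusted p = 0.04872, edgeR) on the log2 scale. Foxo3 fell by 0.97 (adjusted p = 0.004623, edgeR) and Sesn3 fell by 1.28 (adjusted p = 0.0183, edgeR). The call of Foxo1 was lost in 13 of 16 fits that each left out 1 library and with the length and GC offset (0.71, adjusted p = 0.1605), and with that offset those of Irs2 and Txnip were lost too (adjusted p = 0.2242 and 0.2341). The call of Sesn3 was lost without Lys05 library 4 or combination library 3, and on library totals alone (adjusted p = 0.2307), as was that of Foxo3 (adjusted p = 0.3142). On totals 6382 of 8529 calls over all genes were higher, against 4279 of 7792 with TMM. Klf6 stood at -0.58 (adjusted p = 0.08035, edgeR) and was called lower with the offset (-1.06, adjusted p = 0.00504, edgeR), DESeq2 (-0.70, adjusted p = 0.02385), RLE size factors (adjusted p = 0.04142), voom (adjusted p = 0.02647), a fit of these 2 groups alone (adjusted p = 0.01985) and without AC220 library 1 (adjusted p = 0.02938). Pik3ip1 stood at 0.37 (adjusted p = 0.1322, edgeR) and was called higher by voom and on totals, where Klf2 was too (adjusted p = 0.04568).

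The rest of the pathway was read from 8 lists. Among 28 tested further FOXO targets, 12 rose and 4 fell under AC220 in LSK cells, with or without the length and GC offset. Without the offset, 29.4% of all genes were called higher and 25.5% lower. The list's median log2 fold change was 1.04 without the offset and 0.61 with it. Over all genes the median was 0.09 without the offset. Genes of 2000 to 4000 bp had medians of 0.54 without the offset and 0.15 with it. Cdkn1a, the p21 cell cycle inhibitor, fell (-2.36 ± 0.21, adjusted p = 7.233e-08, edgeR). Sesn1, a second sestrin, rose (1.61 ± 0.16, adjusted p = 4.15e-07, edgeR), as did Rictor, the defining subunit of mTORC2 (1.94 ± 0.22, adjusted p = 1.139e-06, edgeR), and Tob1, an antiproliferative factor (2.53 ± 0.29, adjusted p = 1.559e-06, edgeR). All 4 kept their calls with the length and GC offset, at -2.57, 1.24, 2.47 and 2.85. Within the sestrin family, Sesn1 and Sesn3 thus changed in opposite directions with either fit.

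Upstream, 8 of 13 tested PI3K and phosphoinositide phosphatase genes rose and 0 fell under AC220, beside 29.4% higher and 25.5% lower over all genes. They included Pik3cd (1.69 ± 0.14) and Pik3cg (1.40 ± 0.17), catalytic subunits of leukocyte PI3K, the adaptor Pik3ap1 (2.82 ± 0.31) and Inpp5d, the phosphatase SHIP1 (1.55 ± 0.21), with adjusted p of 3.892e-08, 1.92e-06, 1.078e-06 and 9.923e-06 (edgeR). With the offset Pik3cd stood at 0.64, Pik3cg at 1.03 and Inpp5d at 0.77, and 6 of the 13 were called, all higher. Of 10 receptor adaptors and receptors listed beside Irs2, 4 rose and 1 fell, or 2 and 2 with the offset. Shc1, an adaptor of the RAS pathway, rose (3.10 ± 0.20, adjusted p = 1.862e-09, edgeR), as did the insulin receptor Insr (1.47 ± 0.34, adjusted p = 0.001705, edgeR) and the adaptor Gab1 (1.58 ± 0.38, adjusted p = 0.002144, edgeR), while the receptor Igf1r fell (-1.46 ± 0.45, adjusted p = 0.01172, edgeR). Gab1 lost its call with the offset (0.89, adjusted p = 0.07801).

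Among 20 genes of AKT, SGK and the mTOR complexes, 14 rose and 4 fell, beside 29.4% higher and 25.5% lower over all genes. The kinase Akt1 rose (3.34 ± 0.20, adjusted p = 4.394e-10, edgeR), Gsk3a, a kinase that AKT inhibits, rose (2.89 ± 0.21, adjusted p = 4.687e-09, edgeR), and Rheb, the GTPase that activates mTORC1, fell (-2.16 ± 0.13, adjusted p = 4.92e-10, edgeR). With the offset 8 rose and 5 fell, and these 3 stood at 2.36, 2.19 and -2.31. Of 17 FOXO modifiers and partners, 7 rose and 1 fell, or 7 and 5 with the offset. Ctnnb1, the FOXO cofactor beta-catenin, rose (1.87 ± 0.14, adjusted p = 1.004e-08, edgeR), and Ep300, an acetyltransferase, rose (1.53 ± 0.23, adjusted p = 3.196e-05, edgeR). The 14-3-3 gene Ywhae fell (-0.92 ± 0.12, adjusted p = 5.377e-06, edgeR), and Stk4, the MST1 kinase, rose (0.58 ± 0.12, adjusted p = 0.0008504, edgeR) but lost its call with the offset (0.19, adjusted p = 0.1556).

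Around Txnip, 5 of 9 tested thioredoxin and MondoA genes rose and 3 fell, beside 29.4% higher and 25.5% lower over all genes. Txn1, the thioredoxin that TXNIP binds, fell (-1.83 ± 0.11, adjusted p = 8.33e-10, edgeR), by less with the offset (-0.49, adjusted p = 0.0001701, edgeR). The mitochondrial thioredoxin Txn2 fell (-1.08 ± 0.19, adjusted p = 0.0001139, edgeR), and Mlxip, which encodes MondoA, an activator of Txnip, rose (1.54 ± 0.23, adjusted p = 2.208e-05, edgeR). Txnrd1, thioredoxin reductase, rose (0.90 ± 0.17, adjusted p = 0.0002106, edgeR) but lost its call with the offset (0.15, adjusted p = 0.3933). Around Sesn3, 6 of 10 tested sestrin and GATOR genes rose and 0 fell, with either fit. Beside Sesn1 they included Wdr24 (1.78 ± 0.22), a GATOR2 subunit, and Nprl3 (1.79 ± 0.32) and Depdc5 (1.19 ± 0.26), GATOR1 subunits, with adjusted p of 2.748e-06, 0.0001795 and 0.0009163 (edgeR).

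Of 12 other Krüppel-like factors, 2 rose and 3 fell, beside 29.4% higher and 25.5% lower over all genes. Klf10 (-1.81 ± 0.20), Klf13 (-1.17 ± 0.19) and Klf7 (-1.33 ± 0.32) fell, with adjusted p of 7.575e-07, 7.41e-05 and 0.002166 (edgeR), and Klf16 rose (1.31 ± 0.37, adjusted p = 0.006198, edgeR). With the offset 0 rose and 5 fell, and Klf16 stood at 0.26 (adjusted p = 0.6306, edgeR). The combination was set against the same vehicle libraries, which the 2 comparisons share, and gave 13 higher and 4 lower for the further FOXO targets, 6 and 0 for the PI3K genes, 12 and 2 for AKT, SGK and mTOR, and 2 and 4 for the Krüppel-like factors. With the offset these were 11 and 4, 4 and 0, 9 and 5, and 0 and 5 in the same order. The counts without the offset stand beside 54.9% of all genes called for AC220 (29.4% higher and 25.5% lower). For the combination the share was 51.8% (28.3% higher and 23.6% lower). No share over all genes is given for the counts with the offset, for these lists or for the marker genes. The shares above come from the fit without the offset and do not apply to those counts. All these counts describe the lists, and no list was tested against other genes. Sesn1, Rictor and Insr stand in 2 lists each.

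**Figure D3:**
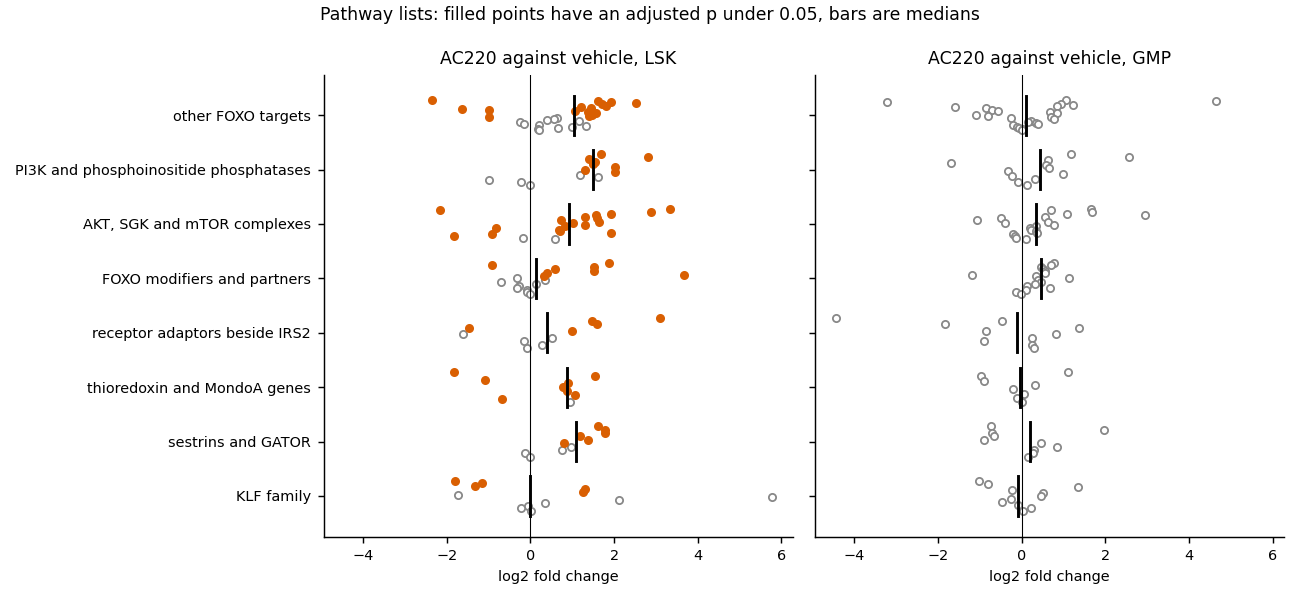
Log2 fold change of AC220 against vehicle for every tested gene of 8 pathway lists, in LSK cells (left) and GMP (right); filled points have an adjusted p under 0.05 and the bars are list medians. In LSK cells the medians run from about 0 for the Krüppel-like factors to 1.49 for the PI3K genes, and in GMP no gene passed the test.

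In GMP, none of the 9 genes was called in any treatment comparison by edgeR. Libraries of 1 group differed widely there: the biological coefficient of variation was 1.06 in the GMP fit and 0.475 in the LSK fit. AC220 against vehicle called 0% of all genes (1386 at an unadjusted p under 0.05, and 282 by DESeq2) and the combination against vehicle called 0% (1601 at an unadjusted p under 0.05, and 353 by DESeq2). For the other comparisons the first number in brackets is that of genes at an unadjusted p under 0.05 and the second that of genes called by DESeq2. Lys05 against vehicle called 0% (159 and 2), the combination against Lys05 0% (1786 and 454), the interaction 0% (1287 and 240), the combination against AC220 0.00686% (2035 and 818) and both AC220-containing groups against the other 2 groups 0.0549% (2152 and 684).

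The spread showed in the factors themselves. Foxo1 had 0.656, 2.961, 3.92 and 0.4937 CPM with AC220, 2.15, 0.1173, 4.465 and 0.02902 CPM with the combination and 0.03164, 4.749, 2.734 and 3.468 CPM with vehicle. Vehicle library 1 and combination library 4 each held 1 count of Foxo1. Foxo4 had 0 counts in AC220 library 3 and in combination library 3, which allows up to 3 counts, or 0.0884 and 0.0779 CPM, against 4.813 CPM in combination library 1 and 1.013 to 3.166 CPM with vehicle. Foxo3 was steadier but for 1 combination library, with 46.55, 31.13, 24.99 and 29.51 CPM with AC220, 41.56, 50.76, 2.7 and 45.18 CPM with the combination and 14.68, 45.71, 34.02 and 23.98 CPM with vehicle. Its log2 fold change was 0.16 ± 0.62 with AC220 (adjusted p = 0.9744, edgeR) and 0.24 ± 0.62 with the combination (adjusted p = 0.9188, edgeR).

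Klf6 and Txnip had the smallest p of the 9 genes in GMP, for the combination. Klf6 had 10.6, 20.23, 17.76 and 3.395 CPM with the combination and 118.6, 50.16, 37.48 and 31.63 CPM with vehicle, without overlap, a log2 fold change of -2.19 ± 0.71 (adjusted p = 0.318, edgeR). Txnip had 10.38, 1.76, 2.881 and 8.386 CPM with the combination and 40.0, 16.7, 21.65 and 22.08 CPM with vehicle, also without overlap, a log2 fold change of -2.10 ± 0.89 (adjusted p = 0.395, edgeR). In the same libraries macrophage markers summed to 91 to 1092 CPM with the combination and 11.9 to 30.2 CPM with vehicle, and the granulocyte-macrophage markers to 27040 to 34880 CPM and 36980 to 53520 CPM (exact two-sided permutation test, p = 0.0286 for each). The 10 dendritic cell and MHC genes summed to 200.5 to 1541 CPM with the combination and 3158 to 12040 CPM with vehicle in GMP (exact two-sided permutation test, p = 0.0286). The part of these cells in the level of either gene was not tested.

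Of the other members in GMP, Irs2, Pik3ip1 and Klf2 overlapped between AC220, the combination and vehicle. Irs2 had 5.327, 14.05, 11.14 and 7.975 CPM with AC220, 12.29, 3.661, 13.91 and 18.37 CPM with the combination and 22.72, 3.869, 9.497 and 10.21 CPM with vehicle. Pik3ip1 ran from 11.89 to 98.22 CPM with AC220, from 0.7255 to 117.8 CPM with the combination and from 5.0 to 67.74 CPM with vehicle. Klf2 ran from 3.124 to 54.08 CPM with AC220, from 8.8 to 117.5 CPM with the combination and from 9.683 to 43.15 CPM with vehicle. With Lys05 alone every one of the 9 genes overlapped vehicle in GMP. Klf2 ran from 10.06 to 19.67 CPM there and Klf6 from 24.55 to 35.65 CPM. For Lys05 against vehicle Klf2 stood at -0.959 ± 0.921 without a call by edgeR, but was called by voom (-1.509, adjusted p = 0.01159, limma). Sesn3 was at 1.968 CPM or less in every AC220 library and at 2.076 to 4.519 CPM with vehicle, without overlap, a log2 fold change of -2.13 ± 1.69 (adjusted p = 0.7939, edgeR). Its counts were 0 in AC220 library 4 and in combination library 4, which allows up to 0.057 and 0.0871 CPM by the same limit.

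**Figure D4:**
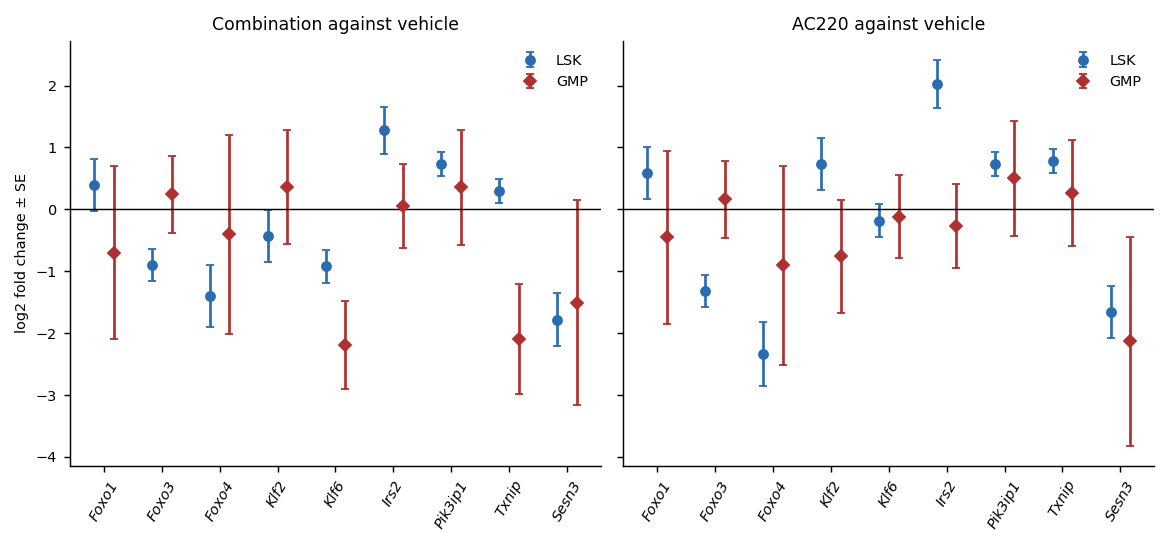
Log2 fold change with its standard error for the combination against vehicle (left) and AC220 against vehicle (right), in LSK cells (circles) and GMP (diamonds), each fitted within its cell type. The errors in GMP run from 0.62 to 1.69 and those in LSK cells from 0.19 to 0.52.

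The last comparisons set LSK cells against GMP in 1 fit of all 32 libraries. With vehicle, none of the 9 genes was called, beside 4.84% of all genes. Irs2 was nearest, at -1.18 ± 0.52 for LSK minus GMP (adjusted p = 0.1963, edgeR), followed by Klf2 at -1.26 ± 0.78 (adjusted p = 0.4081, edgeR), Sesn3 at 1.62 ± 1.15 (adjusted p = 0.4972, edgeR) and Txnip at 0.84 ± 0.61 (adjusted p = 0.5114, edgeR).

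The effect of AC220 differed between the cell types for 1 gene of 9, Irs2, beside 16.8% of all genes. The difference, LSK minus GMP, was 2.42 ± 0.73 (adjusted p = 0.02115, edgeR), in the fit of all 32 libraries. Fitted within each cell type the effect was 2.03 ± 0.39 in LSK cells and -0.27 ± 0.68 in GMP, which need not differ by the same amount. The call was lost without LSK AC220 library 1 (adjusted p = 0.06447), without GMP vehicle library 1 (adjusted p = 0.05287), without the least correlated library of each LSK group or of each GMP group (adjusted p = 0.1344 and 0.05803) and with the length and GC offset (1.49, adjusted p = 0.2075). For Klf2 the difference was 1.72 (adjusted p = 0.2973, edgeR). It passed without GMP AC220 library 1 (3.32, adjusted p = 0.0235, edgeR), without the least correlated library of each GMP group (3.62, adjusted p = 0.000399, edgeR) and with voom (2.92, adjusted p = 0.02006, limma). For Foxo3 the difference was -1.28 ± 0.68 (adjusted p = 0.2073, edgeR), which passed with the offset (-2.46, adjusted p = 0.03058, edgeR). The effect of the combination differed for 0 of 9 genes, beside 12.7% of all genes (4659 at an unadjusted p under 0.05, and 3429 called by DESeq2). Txnip was nearest there, at 2.53 ± 0.87 (adjusted p = 0.05318, edgeR), beside 0.30 in LSK cells and -2.10 ± 0.89 in GMP from the fits of each cell type, and was called by DESeq2 (2.36, adjusted p = 0.03294) and on library totals alone (3.10, adjusted p = 0.02054, edgeR).

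Over the 32 libraries, each gene's log2 CPM was compared with that of 8248 other genes with a mean log2 CPM of at least 2. These likenesses rest on libraries that share cell type, treatment and transcript length differences, and they are given as a description. Foxo1 was most like Ulk1, a kinase that starts autophagy (Pearson's r = 0.91, Spearman's rho = 0.775), and Dcp1a (r = 0.885, rho = 0.76). Foxo3 was most like Usp16 (r = 0.897, rho = 0.875) and Taf7 (r = 0.88, rho = 0.776), and Foxo4 most like Ccdc180 (r = 0.852, rho = 0.621) and Khk (r = 0.841, rho = 0.708). Irs2 was most like Gfi1, a repressor active in stem cells and granulocyte precursors (r = 0.784, rho = 0.845), and Gak (r = 0.769, rho = 0.809). Txnip was most like Myo1c (r = 0.905, rho = 0.926) and Uvrag, which acts in autophagy (r = 0.889, rho = 0.855). Klf6 was most like the dendritic cell lectin Cd209a (r = 0.854, rho = 0.811) and Vps41 (r = 0.85, rho = 0.368). Pik3ip1 was most like Ank (r = 0.888, rho = 0.56) and Mettl17 (r = 0.885, rho = 0.622), Sesn3 most like Sgcb (r = 0.843, rho = 0.631) and Alg11 (r = 0.832, rho = 0.69), and Klf2, with the weakest values, most like Rufy3 (r = 0.694, rho = 0.508) and Tns3 (r = 0.679, rho = 0.538).

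Other measures of the LSK libraries moved with AC220 and the combination beside the genes above. Markers of T and NK cells summed to 384 to 770 CPM with AC220, 578 to 759 CPM with the combination and 1641 to 2456 CPM with vehicle (exact two-sided permutation test, p = 0.0286 for each). Nkg7 held most of that sum, with a median of 445.2 CPM under AC220 and 2104 CPM under vehicle, while the T cell markers Cd3e and Trac were at 0 or at most 1.936 CPM in the vehicle libraries. B cell markers summed to 38.9 to 58.3 CPM with AC220, 50.3 to 75.2 CPM with the combination and 121 to 189 CPM with vehicle (exact p = 0.0286 for each). The single B cell genes were mixed. With the length and GC offset, 1 of 6 tested was called higher and 1 lower, for AC220 and again for the combination. Neutrophil markers summed to 1133 to 2128 CPM with AC220, 1201 to 3453 CPM with the combination and 3400 to 8744 CPM with vehicle (exact p = 0.0286 and 0.0571), and on library totals alone these were 0.0857 and 0.114. Macrophage markers summed to 14.2 to 26.1 CPM with AC220, 28.5 to 43.4 CPM with the combination and 2.8 to 18.3 CPM with vehicle (exact p = 0.114 and 0.0286). On library totals alone the AC220 libraries too lay above vehicle, at 18.1 to 33.6 against 2.05 to 14.5 CPM (exact p = 0.0286). The 8 stem and progenitor markers summed to 780 to 1202 CPM with AC220, 971 to 1121 CPM with the combination and 484 to 508 CPM with vehicle (exact p = 0.0286 for each). With Lys05 alone this sum was 585 to 640 CPM, also above vehicle (exact p = 0.0286, and the same on library totals alone). The other sums of this paragraph overlapped vehicle under Lys05. The part of these measures in the levels of Foxo3, Sesn3 and the other genes was not tested.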

How the data were processed

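The deposited table holds raw counts per Ensembl gene, made by the authors, with no normalization. The submitters' processing notes name HTSeq 0.11.2, STAR 2.7.3a and the GRCm38 build, Trim Galore 0.6.5, bcl2fastq 2.20 and also DESeq2 1.26.0, without their roles, and the strand setting and annotation release are not given in the sources used here. Per the labels' protocols, RNA was amplified with a SMARTer low-input kit and made into Nextera XT libraries. The 5 summary lines of the table were left out, and GENCODE M21 named 55230 of the rows.

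Groups came from the cell type and treatment labels, which give biological replicates but no batch and no pairing. Counts were tested with edgeR 4.0.16 in R 4.3.3 (filterByExpr, TMM, quasi-likelihood test, two-sided, Benjamini-Hochberg over all genes tested, call at adjusted p under 0.05) over the 16 libraries of a cell type, or over all 32 for comparisons between cell types. Standard errors are the fold change divided by the root of the F statistic. Alternatives were DESeq2 1.42.0, limma 3.58.1 (voom with quality weights), RLE size factors, no filter, only the groups compared, an offset from splines on transcript length and GC content, each library left out, and, chosen after seeing the data, library totals without TMM factors and the least correlated library of each group left out. On simulated counts with known changes, AC220 against vehicle recovered 93% of genes changed by 2 on the log2 scale and 49% of those changed by 1 in LSK cells, over 15247 genes, and 16% and 0% in GMP, over 14088 genes. The difference in AC220 effect, LSK minus GMP, recovered 12% and 0%, over 16668 genes, and 7.69% of its 13 calls were false. Only 100 genes were changed at each size, all above a minimum level. These shares therefore do not describe sparse genes, such as Foxo4 in LSK cells or Foxo1, Foxo4 and Sesn3 in GMP. Nor do they describe data in which 54.9% of genes are called. Intervals and limits from counts cover counting error only. The 9 genes and all gene lists were chosen with earlier results of these data known, and some listed genes are not reported here and stand in no list count or sum. Named genes of a list are up to 4 called members with the smallest p; those given beside them without a call were chosen after their values were seen.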

Additional observations from a re-analysis of the deposited data

Results flagged for a closer look

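Of 72 sets of 4 libraries (9 genes in 8 groups), 4 held 1 library far from the other 3, and chance alone marks about 1 set in 20. Foxo3 was at 31.61 CPM in LSK combination library 1 and at 12.0, 13.27 and 13.36 CPM in the others. Irs2 was at 49.45 CPM in LSK AC220 library 1 and at 20.38, 22.98 and 24.32 CPM in the others. Klf2 was at 54.08 CPM in GMP AC220 library 1, against 3.124 to 10.63 CPM, and at 117.5 CPM in GMP combination library 3, against 8.8 to 14.42 CPM. All 4 libraries were also the ones that correlated least with their group over all genes.

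The effect of AC220 on Irs2 differed between the cell types, by 2.421 on the log2 scale for LSK minus GMP (adjusted p = 0.02115, edgeR, from a test of the difference itself). The call was lost without LSK AC220 library 1 (adjusted p = 0.06447), without GMP vehicle library 1 (adjusted p = 0.05287), without the least correlated library of each LSK or GMP group (adjusted p = 0.1344 and 0.05803) and with the length and GC offset (adjusted p = 0.2075).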

How the results depend on the processing

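The fall of Foxo4 and the rise of Irs2 under AC220 in LSK cells were called under all 8 alternatives and without each library in turn, and the falls of Foxo3 and Sesn3 under all but library totals without TMM factors (adjusted p = 0.0633 and 0.06739). The rise of Pik3ip1 under AC220 turned to -0.004 with the length and GC offset. With voom, Foxo1 was called too for AC220 against vehicle in LSK cells, 3 of the 9 genes were called for the combination against AC220 in LSK cells, 1 for Lys05 against vehicle in GMP, 1 for both AC220-containing groups against the other 2 in GMP, 2 for LSK against GMP with vehicle and 3 for the difference in AC220 effect. With the offset, 3 were called for the combination against Lys05 in LSK cells. Without the least correlated library of each GMP group, 1 gene was called in GMP (Klf2, which turned to -1.434), 1 for LSK against GMP with vehicle and 1 for the difference in combination effect, and without that of each LSK group 0 for the difference in AC220 effect. Without the least correlated GMP libraries that difference was called for Klf2 in place of Irs2. DESeq2, library totals alone and a fit of only the groups compared each called 1 for the difference in combination effect. Leaving out 1 library gave 6 to 7 calls for AC220 and 5 to 6 for the combination against vehicle in LSK cells, 3 to 5 calls for the combination against Lys05 in LSK cells, 0 to 2 for the difference in AC220 effect and 0 to 1 for that in combination effect. The share of all genes called under the same setting is not given beside most of these counts. They therefore do not set the 9 genes apart from other genes. The cause of these changes was not tested.

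Over all genes, the combination against AC220 in LSK cells called 56 genes, but 1 with the offset, 4 with RLE size factors, 2 on library totals alone, 349 with DESeq2 and 2113 with voom. Both AC220-containing groups against the other 2 in GMP called 8 genes, 15 on totals (where the combination against Lys05 in GMP called 2), 684 with DESeq2 and 1064 without the least correlated libraries. LSK against GMP with vehicle called 829 (303 higher), or 1927 with DESeq2, and 763 (414 higher) on totals. For LSK minus GMP, 2695 of 3620 calls on totals were higher for the AC220 effect, against 1428 of 2884 with TMM, and 1838 of 2541 for the combination effect, against 880 of 2182. The spread among GMP libraries limits what could be called there, and at 20 to 35 counts a library the level of Foxo4 in LSK cells is the least precise. No paired analysis was possible because the labels give no replicate numbers that link samples across groups.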
